A study of Mus musculus with 43 samples.

Results

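*Nfe2l2*, which encodes the transcription factor NRF2, and 9 genes of its antioxidant programme were followed through the retinal transcriptome after laser-induced choroidal neovascularization (CNV). These 10 genes were taken from a list of symbols, *Nfe2l2*, *Keap1*, *Hmox1*, *Nqo1*, *Gclc*, *Gclm*, *Txnrd1*, *Srxn1*, *Slc7a11* and *Gsr*, each matched to a single row among the 54532 genes of the count table. In this model a laser breaks the membrane under the retinal pigment epithelium of the mouse, and new vessels grow in from the choroid. The study asked whether short-chain fatty acids (SCFA) given before the lesion change the course of the injury, and whether males and females differ in this. Bulk retinal RNA was counted in 43 libraries of 12 groups, which were males and females, control or SCFA, taken 3, 7 or 14 days after the laser (dpl, days post-laser).

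All mice were C57BL/6J and received the laser lesion at 9 weeks of age, the controls included, so that no group shows the retina without a lesion. Control mice had no SCFA supplementation. SCFA mice drank sodium acetate (67.5 mM), sodium propionate (40 mM) and sodium butyrate (25 mM) from 3 weeks before the lesion until the tissue was taken. The doses of propionate and butyrate are uncertain, since the weights per litre given beside them do not match these concentrations. There were 4, 3 and 3 libraries of male controls at 3, 7 and 14 dpl, 3, 5 and 3 of male SCFA mice, 3, 3 and 3 of female controls and 5, 4 and 4 of female SCFA mice. Each library pooled 2 retinas from different mice of a group, and whether the fellow eyes of those mice went into other libraries is not given in the sources used here. In such bulk samples, fewer cells of a type and less RNA per cell cannot be told apart.

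NRF2 is held in the cytoplasm and marked for breakdown by KEAP1, a sensor whose cysteines react with oxidants and electrophiles. When KEAP1 is modified, NRF2 accumulates, pairs with a small MAF protein and binds antioxidant response elements in front of genes for glutathione synthesis, thioredoxin recycling, quinone reduction and heme breakdown. The photoreceptors and the retinal pigment epithelium live under strong light and high oxygen use, and this programme is known as a main defence of the retina against oxidative damage.

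The promoter windows of *Srxn1*, *Gclm* and *Nqo1* are shown because these 3 are among the genes called below. Each is the stretch of 150 bases before the gene's start in RefSeq on GRCm38.p6, written 5′ to 3′ on the gene's own strand. Capitals mark matches to TGACNNNGC, the core of the antioxidant response element, or to TGAGTCA, the AP-1 type site, searched on both strands. The windows lie at chr2:152105374-152105523 on the plus strand for *Srxn1*, chr3:122245407-122245556 on the plus strand for *Gclm* and chr8:107403206-107403355 on the minus strand for *Nqo1*.
Srxn1: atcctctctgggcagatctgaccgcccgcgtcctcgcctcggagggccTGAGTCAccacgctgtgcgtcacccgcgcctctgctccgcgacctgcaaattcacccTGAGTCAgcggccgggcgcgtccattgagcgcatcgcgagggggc
Gclm: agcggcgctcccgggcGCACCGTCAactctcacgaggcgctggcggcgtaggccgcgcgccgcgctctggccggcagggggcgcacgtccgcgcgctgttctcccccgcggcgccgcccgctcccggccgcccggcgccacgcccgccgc
Nqo1: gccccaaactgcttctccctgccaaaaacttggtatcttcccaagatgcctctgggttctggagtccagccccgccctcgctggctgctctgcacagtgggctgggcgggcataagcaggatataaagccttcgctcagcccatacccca
Promoters of 300 bases, from 250 before to 50 after the start, were on hand for 7 of the 10 genes, with 9 entries, and those of *Hmox1*, *Gclc* and *Gsr* were not. TGACNNNGC was found in 4 of these 9 promoters (*Nfe2l2*, *Srxn1*, *Gclm* and 1 of the 3 of *Txnrd1*) and in 12.4% of the 32851 promoters of the mouse table. TGAGTCA was found in 1 of the 9, at bases -102 to -96 and -45 to -39 of *Srxn1*, and in 5.2% of all promoters. Letters that join both motifs would count for both. A match describes these letters only, and so does the lack of a match in the window of *Nqo1*.

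Library totals ran from 14826957 to 21507527 counts, and 18628 genes passed the filter on low counts, all 10 genes of the NRF2 programme among them. Values are CPM on TMM-scaled library sizes. All comparisons come from a single edgeR quasi-likelihood fit of 42 libraries, which held a term for the group and a term for the run of columns. A gene was called at an adjusted p under 0.1, and ± after a log2 fold change is its standard error. The study also asked for a fold change over 1, read here as an absolute log2 fold change over 1. Of the calls on the 10 genes, only those of *Hmox1* reached it. They were in females at 3 dpl (2.39% of all genes) and between the sexes with SCFA at 3 dpl (3.31%). Run of columns means the first 31 or the last 12 columns of the count table, and mitochondrial mRNAs took 4.71% to 14.8% of counts in the first and 2.50% to 4.57% in the second. A library labelled as a female control of 7 dpl, its replicate 2, was left out of this fit and entered only an alternative fit of all 43 libraries. It held the Y-linked *Ddx3y* at 15.2 CPM, where the other 21 female libraries were at 0 and the lowest male library at 44.0 CPM.

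All markers of rods, cones, bipolar cells, Müller glia and microglia were counted in every library, as the label retina asks. Among the 42 libraries tested, 3 stood apart. In female SCFA 3 dpl replicate 2, the lens genes *Cryaa*, *Crygs*, *Lim2* and *Bfsp1* summed to 121090 CPM, against at most 338.2 CPM elsewhere, and pigment cell markers to 1896.2 CPM, also the highest sum. In male SCFA 7 dpl replicates 1 and 3, the 5 rod markers summed to 55322 and 45509 CPM, below the 61749 CPM or more of all other libraries. The 5 Müller glia markers summed to 7278.9 and 8459.4 CPM in the same libraries, against 3150.3 to 4021.9 CPM in the male controls of that day. Results that rest on these libraries are given with and without them.

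Per kilobase of exon, *Srxn1* had the highest level of the 10 genes, with a median of 25.5 CPM/kb over 42 libraries and quartiles of 23.2 and 27.8 CPM/kb. *Keap1* (11.3 CPM/kb) and *Gclc* (11.1 CPM/kb) followed, with overlapping quartile ranges. Next came *Gsr* (9.24 CPM/kb), then *Nfe2l2* (7.36 CPM/kb) and *Gclm* (6.63 CPM/kb), whose quartile ranges also overlapped, and *Txnrd1* (5.36 CPM/kb). *Nqo1* (3.18 CPM/kb) and *Hmox1* (3.16 CPM/kb) could not be ordered. *Slc7a11* was lowest, at 0.485 CPM/kb, and its lowest library held 41 counts. Antisense genes overlap *Keap1* (*Gm16754*, median 2.12 CPM) and *Gclm* (*Gm17494*, median 2.93 CPM), and whether reads were counted by strand is not given in the sources used here. *Keap1* varied least between libraries (coefficient of variation 8.44%), with *Gsr* (8.79%) and *Nfe2l2* (9.33%) close to it. *Hmox1* varied most, at 331%, with a highest library at 270.8 CPM and, without that library, at 21.95 CPM.

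**Figure D1:**
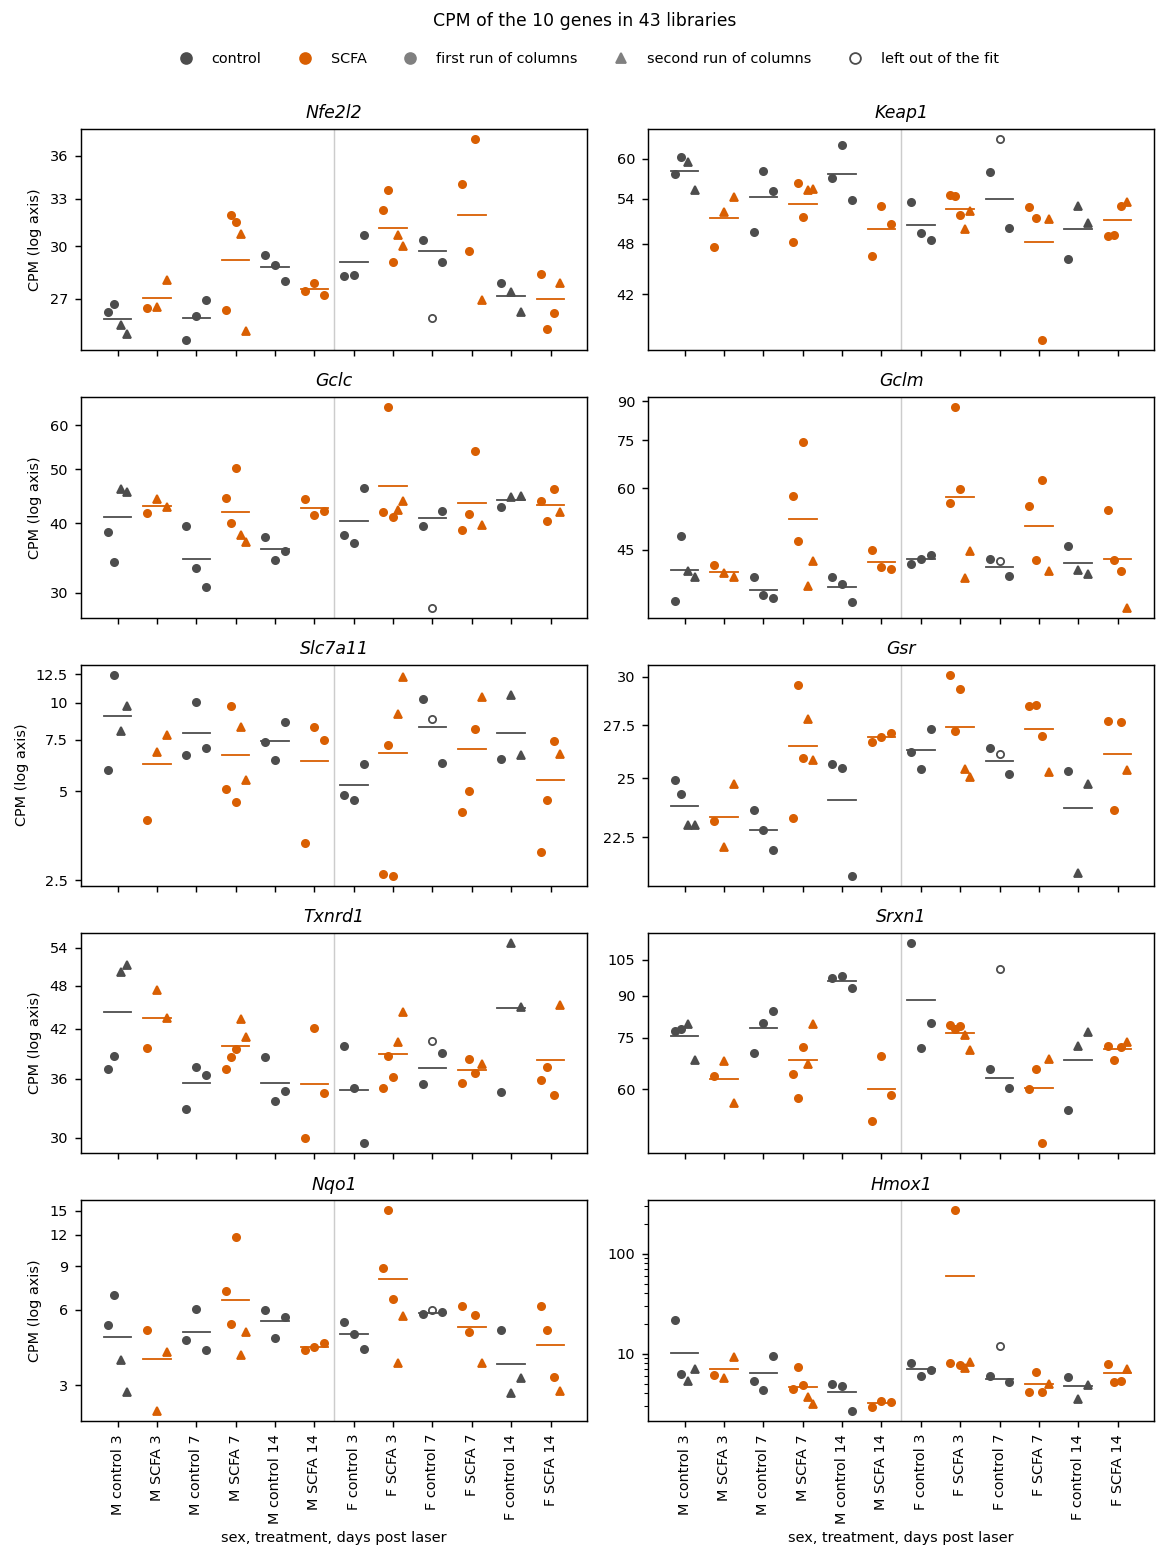
CPM of the 10 genes in each library on a log axis, by group. Circles are libraries of the first and triangles of the second run of columns, open symbols are the library left out of the tests, and lines are group means of the libraries compared. Hmox1 reached 270.8 CPM in 1 female SCFA library at 3 dpl, and Srxn1 in male controls at 14 dpl (92.8 to 97.8 CPM) lay above all male SCFA libraries of that day. Groups did not overlap for 33.0% of all genes in this last pair.

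SCFA over control was tested in each sex at each day. In males, none of the 10 genes was called at 3 dpl, where 0.0913% of all genes were called. At 7 dpl, 3 genes rose, *Nqo1*, *Gclm* and *Gsr*, where 24.1% of all genes were called and 13.4% were higher. At 14 dpl *Srxn1* fell, where 11.4% of all genes were called and 5.88% were lower. In females, *Hmox1*, *Nqo1* and *Gclm* rose at 3 dpl, where 10.2% of all genes were called and 5.09% were higher. None was called at 7 or 14 dpl, where 0% of all genes were called by edgeR.

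Where none was called, the genes of the programme at an unadjusted p under 0.05 numbered 2 in males at 3 dpl (2204 of all 18628 genes), 0 in females at 7 dpl and 0 in females at 14 dpl, and DESeq2 called 0 in each. Over all genes, females had 1669 genes at an unadjusted p under 0.05 at 7 dpl and 592 at 14 dpl, and DESeq2 called 14 and 9. The median log2 fold change of the 10 genes was 0.12 in males at 7 dpl (all genes -0.031), -0.13 in males at 14 dpl (all genes 0.014) and 0.094 in females at 3 dpl (all genes -0.009). It was -0.097 in males at 3 dpl (all genes 0.004), 0.028 in females at 7 dpl (all genes -0.006) and -0.037 in females at 14 dpl (all genes -0.005). Over the mean of the 6 pairs, 6 of the 10 genes were called, where 31.8% of all genes were called, and their median was 0.09 (all genes 0). *Gclc*, *Gclm* and *Gsr* were higher (16.1% of all genes) and *Srxn1*, *Keap1* and *Slc7a11* lower (15.7%).

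**Figure D2:**
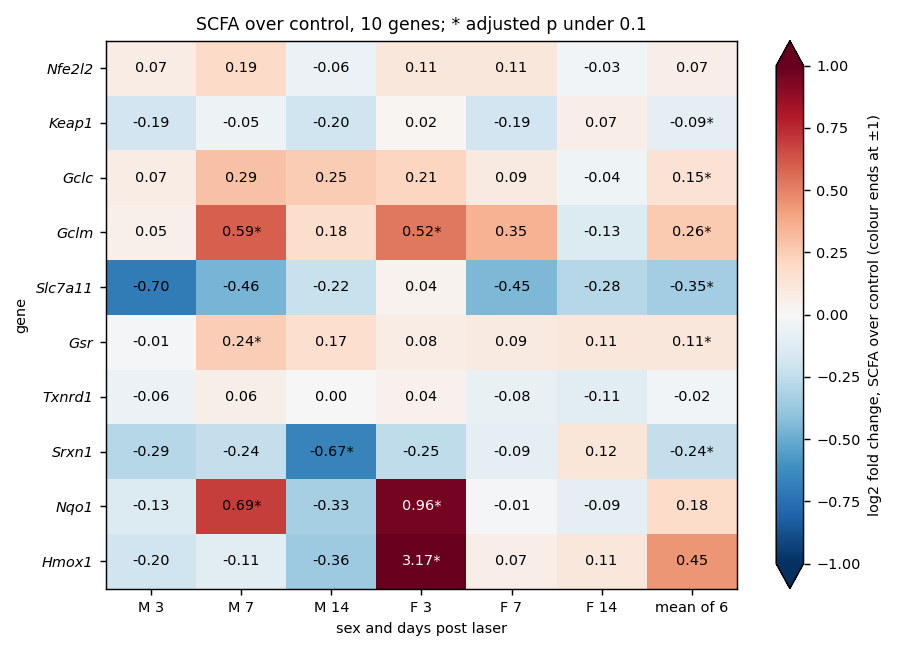
Log2 fold change of SCFA over control for the 10 genes (rows) in each sex and day and in the mean of the 6 pairs (columns), with the scale of colours in log2 units and an asterisk at an adjusted p under 0.1. The 7 asterisks of single pairs fall in males at 7 and 14 dpl and in females at 3 dpl.

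*Nfe2l2* (ENSMUSG00000015839, chr2:75675513-75704641 on the minus strand of GRCm38) itself was not called by edgeR with all 42 libraries in any comparison of treatment, sex or day. In males at 7 dpl its libraries were at 24.9, 26.1 and 26.9 CPM in controls and at 26.4, 31.9, 31.5, 30.8 and 25.3 CPM with SCFA. The groups overlapped, and the log2 fold change was 0.19 ± 0.09 (adjusted p = 0.142). It was called without SCFA replicate 1 (0.24, adjusted p = 0.0952) or 5 (0.23, adjusted p = 0.076), with at least 10 counts in every library (0.20, adjusted p = 0.0933) and by DESeq2 (0.21, adjusted p = 0.0653). The lowest group mean was that of male controls at 3 dpl, 25.95 ± 0.72 CPM (SD, n = 4), and the highest that of female SCFA mice at 7 dpl, 31.97 ± 4.55 CPM (n = 4).

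*Keap1* (ENSMUSG00000003308, chr9:21229730-21239361, minus strand), which encodes the repressor of NRF2, was lower with SCFA in the mean of the 6 pairs (log2 fold change -0.09 ± 0.04, adjusted p = 0.0867). This call was kept in 23 of the 42 fits that left out a library, and without the 3 libraries that stood apart it was -0.069 (adjusted p = 0.239). It was also lost without the libraries poor in rods (adjusted p = 0.152), with RLE scaling (0.126), a replicate block (0.105), no run of columns in the fit (0.178), the first run alone (0.252) and no filter on low counts (0.508), at log2 fold changes between -0.091 and -0.081. In males at 3 dpl, controls were at 57.7, 60.3, 59.4 and 55.2 CPM and SCFA libraries at 47.6, 52.1 and 54.2 CPM. The groups did not overlap, as was so for 8.49% of all genes, but the difference was not called (log2 fold change -0.19 ± 0.09, adjusted p = 0.417). At 14 dpl the male controls, at 57.1, 62.2 and 53.8 CPM, lay above the male SCFA libraries, at 46.4, 53.0 and 50.5 CPM. Groups did not overlap for 33.0% of all genes in that pair, and *Keap1* was not called (log2 fold change -0.20 ± 0.10, adjusted p = 0.221).

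*Gclm* (ENSMUSG00000028124, chr3:122245557-122270732, plus strand), the modifier subunit of glutamate-cysteine ligase, which sets the pace of glutathione synthesis, rose with SCFA in males at 7 dpl and in females at 3 dpl. In males at 7 dpl, controls were at 39.7, 36.5 and 36.0 CPM, a mean of 37.4 ± 2.02 (SD, n = 3). SCFA libraries were at 57.8, 46.8, 74.5, 38.0 and 42.6 CPM, a mean of 51.9 ± 14.6 (n = 5). Replicates 1 and 3, at 57.8 and 74.5 CPM, were the highest, and replicate 4 lay within the controls. The log2 fold change was 0.59 ± 0.15 (1.51-fold, adjusted p = 0.00626), and the gene was called in all 8 fits that left out a library. Without both of the libraries poor in rods, the SCFA mean was 42.5 ± 4.44 CPM (n = 3) and the log2 fold change 0.38 (adjusted p = 0.208), so the call was lost. It was also lost without run of columns in the fit (0.47, adjusted p = 0.115).

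In females at 3 dpl, *Gclm* was at 42.03, 43.1 and 43.9 CPM in controls and at 56.0, 87.7, 59.9, 39.4 and 44.8 CPM with SCFA. Replicate 2, the library with lens transcripts, was the highest, and replicate 4 lay below the controls. *Gclm* was 1.44-fold higher, a log2 fold change of 0.52 ± 0.15 (adjusted p = 0.0395). Without replicate 2 it was 0.34 (adjusted p = 0.209). It was also not called without control replicate 2 (adjusted p = 0.102) or 3 (adjusted p = 0.171), or without run of columns in the fit (0.41, adjusted p = 0.27).

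Over the mean of the 6 pairs, *Gclm* was higher with SCFA by 0.26 ± 0.06 on the log2 scale (adjusted p = 0.00309). This call held in all 42 fits that left out a library and without the 3 libraries that stood apart (0.20 ± 0.05, adjusted p = 0.00447). In females at 7 dpl the SCFA libraries were at 55.2, 42.9, 62.3 and 40.8 CPM and the controls at 43.2 and 39.9 CPM. These overlapped, with a log2 fold change of 0.35 ± 0.18 (adjusted p = 0.565). In males at 14 dpl the controls, at 39.6, 38.4 and 35.4 CPM, lay below the SCFA libraries, at 44.9, 41.5 and 41.2 CPM, without a call (0.18 ± 0.16, adjusted p = 0.556). Groups did not overlap for 33.0% of all genes in this pair.

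*Gclc* (ENSMUSG00000032350, chr9:77754535-77794485, plus strand), the catalytic subunit of the same enzyme, was higher in the mean of the 6 pairs (log2 fold change 0.15 ± 0.06, adjusted p = 0.0579). It was 0.10 without the 3 libraries (adjusted p = 0.118), and without female control 7 dpl replicate 1 it was 0.14 (adjusted p = 0.117). Its highest library, at 64.7 CPM, was again female SCFA 3 dpl replicate 2, where the other 4 of the group were between 41.0 and 43.9 CPM. In males at 7 dpl, controls were at 39.5, 33.3 and 30.7 CPM and SCFA libraries at 44.4, 40.0, 50.2, 38.2 and 37.0 CPM. The groups overlapped in this range and the log2 fold change of 0.29 ± 0.13 was not called (adjusted p = 0.13). It was called without control replicate 1 (0.41, adjusted p = 0.0656) or SCFA replicate 5 (0.33, adjusted p = 0.0918), in the first run alone (0.38, adjusted p = 0.0849), with at least 10 counts in every library (0.30, adjusted p = 0.097) and with a replicate block (0.32, adjusted p = 0.0942). In males at 14 dpl, controls were at 37.8, 34.3 and 35.6 CPM, all below the SCFA libraries at 44.3, 41.4 and 42.1 CPM (0.25 ± 0.15, adjusted p = 0.308). Groups did not overlap for 33.0% of all genes in this pair. With these 6 libraries fitted alone, *Gclc* was called (0.25, adjusted p = 0.0941).

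*Gsr* (ENSMUSG00000031584, chr8:33652523-33698163, plus strand), the glutathione reductase that restores oxidized glutathione, rose in males at 7 dpl. Controls were at 23.6, 22.8 and 21.98 CPM, a mean of 22.8 ± 0.82 (SD, n = 3), and SCFA libraries at 23.3, 29.5, 25.9, 27.8 and 25.8 CPM, a mean of 26.5 ± 2.36 (n = 5). SCFA replicate 1 lay within the controls and the other 4 above them. *Gsr* had a log2 fold change of 0.24 ± 0.09 (1.19-fold, adjusted p = 0.0534). Unlike *Gclm* and *Nqo1*, *Gsr* was still called without the libraries poor in rods, at 27.7 ± 1.86 CPM (n = 3), with a log2 fold change of 0.35 (adjusted p = 0.0557). It lost the call without SCFA replicate 2 (0.21, adjusted p = 0.112), control replicate 2 (0.24, adjusted p = 0.131) or control replicate 3 (0.23, adjusted p = 0.182). The call was also lost without run of columns in the fit (0.21, adjusted p = 0.142), in the first run alone (0.21, adjusted p = 0.182) and with no filter on low counts (0.26, adjusted p = 0.4).

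Over the mean of the 6 pairs, *Gsr* was higher by 0.11 ± 0.04 (adjusted p = 0.0263), and by 0.15 ± 0.04 without the 3 libraries (adjusted p = 0.00373). All 42 fits that left out a library called it. The call was lost in the first run alone (0.10, adjusted p = 0.173) and with no filter on low counts (0.12, adjusted p = 0.282).

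*Slc7a11* (ENSMUSG00000027737, chr3:49892526-50443614, minus strand), the cystine carrier that feeds glutathione synthesis, was lower in the mean of the 6 pairs by 0.35 ± 0.15 on the log2 scale (adjusted p = 0.095). It was called in 18 of the 42 fits that left out a library, and not without the 3 libraries (-0.33, adjusted p = 0.137). Its libraries were spread widely within groups. In female SCFA mice at 3 dpl they were at 2.62, 7.19, 2.59, 9.19 and 12.2 CPM, and the 2 highest were those of the second run. The gene was higher in the second run over all groups (log2 difference 0.57 ± 0.19, adjusted p = 0.0126).

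*Srxn1* (ENSMUSG00000032802, chr2:152105516-152111376, plus strand), the sulfiredoxin that repairs overoxidized peroxiredoxins, fell with SCFA in males at 14 dpl. The male controls were at 96.9, 97.8 and 92.8 CPM, a mean of 95.8 ± 2.67 (SD, n = 3), and the SCFA libraries at 52.2, 69.2 and 58.5 CPM, a mean of 60.0 ± 8.62 (n = 3). The groups were far apart, and every SCFA library lay below every control. The log2 fold change was -0.67 ± 0.14 (0.628-fold, adjusted p = 0.0102). In this comparison, 7 of the 10 genes did not overlap between the groups, and neither did 33.0% of all genes, and *Srxn1* was the only gene of the 10 called. All 6 libraries belong to the first run.

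This call of *Srxn1* held without the 3 libraries that stood apart (log2 fold change -0.65 ± 0.14, adjusted p = 0.00705) and with DESeq2. Without SCFA replicate 1, its lowest library, it was -0.58 and was lost (adjusted p = 0.117). Microglia markers, none of which was at 0 in any library, summed to 55.6 to 57.8 CPM in these controls and to 26.7, 44.4 and 36.1 CPM in the SCFA libraries, also without overlap. Rod markers were at 62719 to 73574 CPM in controls and at 70652 to 84603 CPM with SCFA, and Müller glia markers at 4325.7 to 4422.4 CPM and 3780.2 to 4026.1 CPM. Their part in the result was not tested.

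*Srxn1* was also lower in the mean of the 6 pairs, by 0.24 ± 0.05 on the log2 scale (adjusted p = 0.00132). It was called in all 42 fits that left out a library and without the 3 libraries (-0.23 ± 0.06, adjusted p = 0.0032). In males at 3 dpl, the controls at 77.3, 77.8, 79.4 and 68.0 CPM lay above the SCFA libraries at 63.6, 67.7 and 56.5 CPM, without a call (-0.29 ± 0.13, adjusted p = 0.368). Groups did not overlap for 8.49% of all genes in this pair. In females at 14 dpl the direction of *Srxn1* was not the same. Controls were at 54.8, 72.4 and 76.8 CPM and SCFA libraries at 72.4, 68.0, 72.0 and 73.5 CPM, with a log2 fold change of 0.12 ± 0.13 (adjusted p = 1.0) and overlapping groups.

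*Txnrd1* (ENSMUSG00000020250, chr10:82833951-82897712, plus strand), the cytosolic thioredoxin reductase, was not called for SCFA in any pair or in their mean (log2 fold change -0.024 ± 0.045, adjusted p = 0.745). In females at 14 dpl it was -0.11 ± 0.11 (adjusted p = 1.0), and with the second-run controls and the first-run SCFA libraries of this pair fitted alone it was -0.46 and called (adjusted p = 0.0707). The lowest group mean was that of female controls at 3 dpl, 34.8 ± 5.17 CPM (SD, n = 3), and the highest that of female controls at 14 dpl, 44.8 ± 10.1 CPM (n = 3). The latter group held the highest library, at 54.8 CPM, from the second run, and at 34.5 CPM a library of the first.

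*Nqo1* (ENSMUSG00000003849, chr8:107388225-107403206, minus strand), a reductase that turns quinones into hydroquinones, rose with SCFA in males at 7 dpl and in females at 3 dpl, in the same comparisons as *Gclm*. Male controls at 7 dpl were at 4.56, 6.04 and 4.15 CPM, a mean of 4.92 ± 0.99 (SD, n = 3). Male SCFA libraries were at 7.14, 5.25, 11.8, 3.95 and 4.88 CPM, a mean of 6.60 ± 3.12 (n = 5). Replicates 3 and 1, the libraries poor in rods, were the highest, and the others lay within or below the controls. The log2 fold change was 0.69 ± 0.25 (1.62-fold, adjusted p = 0.047).

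Without both of these libraries the male SCFA mean of *Nqo1* at 7 dpl was 4.70 ± 0.67 CPM (n = 3), and the log2 fold change was 0.44 and not called (adjusted p = 0.425). SCFA replicates 4 and 5 belong to the second run, which was lower in *Nqo1* over all groups, and without run of columns in the fit the log2 fold change was 0.42 (adjusted p = 0.516). With SCFA replicates 2, 4 and 5 and the same controls fitted alone, also without run of columns, the difference was -0.055 (adjusted p = 0.897). The call was also lost without SCFA replicate 3 (adjusted p = 0.232), control replicate 1 (adjusted p = 0.13) or control replicate 3 (adjusted p = 0.198).

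In females at 3 dpl, *Nqo1* was at 5.39, 4.79 and 4.19 CPM in controls and at 8.82, 15.04, 6.64, 3.67 and 5.68 CPM with SCFA. The library with lens transcripts was the highest, and replicate 4 lay below the controls. The log2 fold change was 0.96 ± 0.25 (1.95-fold, adjusted p = 0.025). Without the lens library it was 0.68 (adjusted p = 0.153), and the call was also lost without control replicate 3 (adjusted p = 0.17) or without run of columns in the fit (0.71, adjusted p = 0.305).

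*Hmox1* (ENSMUSG00000005413, chr8:75093621-75100589, plus strand), the inducible heme oxygenase, which breaks heme down to biliverdin, iron and carbon monoxide, had the largest fold change of the 10 genes, and this rested on a single library. In females at 3 dpl it was at 8.16, 5.93 and 6.80 CPM in controls, and with SCFA at 8.12, 270.8, 7.78, 7.11 and 8.23 CPM. The library at 270.8 CPM is replicate 2 with its lens and pigment cell transcripts, and the other 4 lay between 7.11 and 8.23 CPM. The log2 fold change was 3.17 ± 0.77 (adjusted p = 0.021). Without replicate 2 it was 0.31 (adjusted p = 0.683), with an SCFA mean of 7.81 ± 0.50 CPM (SD, n = 4) against 6.96 ± 1.12 CPM (n = 3). The call was also lost without control replicate 3 (3.15, adjusted p = 0.135). DESeq2 gave a log2 fold change of 3.19 and no adjusted p for this gene. The counts of genes called by DESeq2 are therefore not taken as a test of *Hmox1*.

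Among the other libraries *Hmox1* was highest in male control 3 dpl replicate 1, at 21.95 CPM, where the other 3 of the group were at 6.32, 5.34 and 6.99 CPM. That library also had the highest sum of the 5 markers of infiltrating myeloid cells, 65.6 CPM, against at most 35.4 CPM elsewhere. Of these markers, *Ccr2* was at 0 in 16 and *Ly6c2* in 30 of the 43 libraries, and *Lyz2* made up most of the sum. Their part in the *Hmox1* level was not tested.

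**Figure D3:**
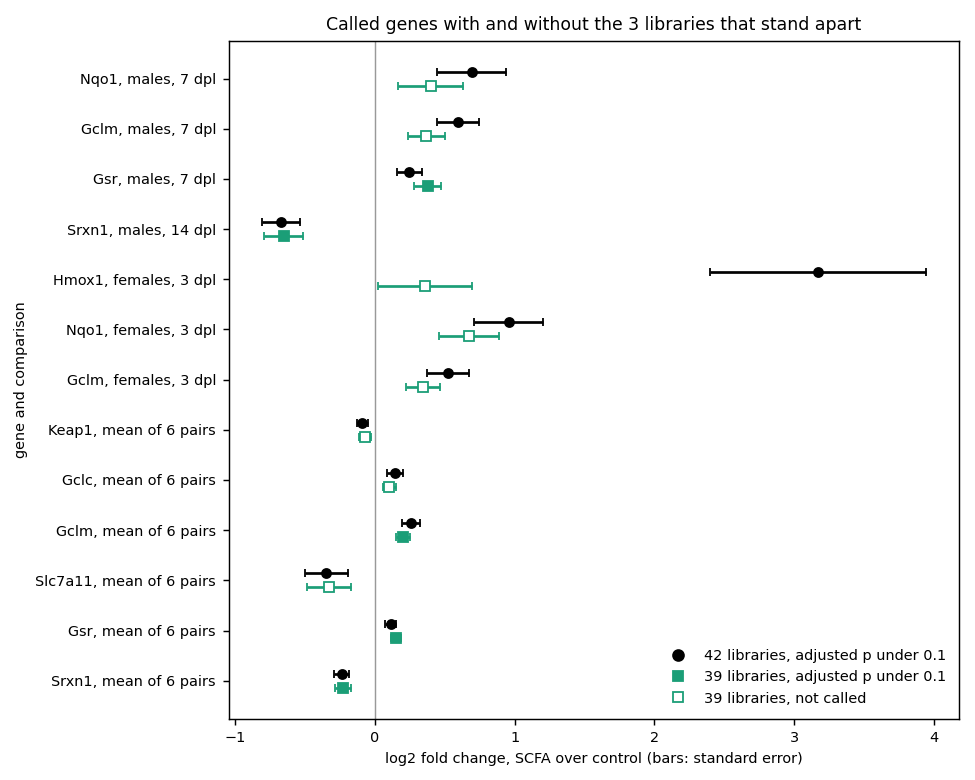
Log2 fold change of SCFA over control with its standard error for each gene and SCFA comparison called with 42 libraries, beside the value without the 3 libraries that stand apart (39 libraries). Hmox1 in females at 3 dpl went from 3.17 to 0.36, and Srxn1 in males at 14 dpl from -0.67 to -0.65.

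A fit without the 3 libraries that stood apart called 1 of the 10 genes in males at 7 dpl (*Gsr*), where 6.49% of all genes were called, and 0 in females at 3 dpl, where 1.83% were. When only the library with lens transcripts was left out, females at 3 dpl had 206 calls among all genes (1.11%) and 0 among the 10, against 1896 with it. The mean of the 6 pairs kept *Gclm*, *Gsr* and *Srxn1*, where 30.3% of all genes were called.

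The sexes were compared within treatment and day. These comparisons use the same libraries as those above, so they are not independent of them. In controls, none of the 10 genes was called at 3 dpl (0.0483% of all genes called) or 7 dpl (0.0429%), with 1 and 0 genes at an unadjusted p under 0.05 (1096 and 1376 of all 18628 genes) and 0 called by DESeq2. At 14 dpl 1 was called, where 7.64% of all genes were called and 3.37% were higher. This was *Srxn1*, which was higher in male controls, at the 96.9, 97.8 and 92.8 CPM given above, than in female controls, at 54.8, 72.4 and 76.8 CPM. The groups did not overlap, and the log2 difference was 0.56 ± 0.15 (1.48-fold, adjusted p = 0.0335). Among the 10 genes 5 did not overlap between the sexes, and neither did 20.8% of all genes. The call was lost without female replicate 1 (0.41, adjusted p = 0.197) or male replicate 2 (0.55, adjusted p = 0.144), and with the same 6 libraries fitted alone (0.49, adjusted p = 0.209). Female replicates 2 and 3 belong to the second run, the other 4 libraries to the first.

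With SCFA at 3 dpl, 2 of the 10 genes were lower in males, *Hmox1* and *Nqo1*, where 17.7% of all genes were called and 7.41% were lower. *Nqo1* was at 4.98, 2.36 and 4.07 CPM in the male libraries, and the female libraries are those given above. The groups overlapped, and the log2 difference was -0.78 ± 0.25 (adjusted p = 0.0433). With the 3 libraries left out it was -0.60 ± 0.21 and still called (adjusted p = 0.0827), with 10.3% of all genes, but with only the lens library left out it was not (-0.56, adjusted p = 0.15). *Hmox1* was at 6.06, 5.67 and 9.30 CPM in males, a log2 difference of -2.47 ± 0.79 (adjusted p = 0.0449) that was -0.10 without the 3 libraries (adjusted p = 0.876).

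None of the 10 genes was called between the sexes with SCFA at 7 dpl (0.531% of all genes called) or 14 dpl (0.0591%), with 1 and 0 genes at an unadjusted p under 0.05 (2089 and 592 of all 18628 genes) and 0 by DESeq2. At 14 dpl *Hmox1* was at 2.93, 3.38 and 3.26 CPM in males and at 7.81, 5.23, 5.39 and 7.05 CPM in females. The groups did not overlap, as for 9.32% of all genes. The log2 difference of -1.28 ± 0.82 was not called (adjusted p = 1.0), nor was -1.10 ± 0.35 without the 3 libraries (adjusted p = 0.955).

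Days were compared as the mean of both sexes within a treatment, and none of the 10 genes was called by edgeR between 3 and 7 dpl or between 7 and 14 dpl. Over all genes, 0% were called in controls in either step and from 3 to 7 dpl with SCFA. In controls, 0 of the 10 were at an unadjusted p under 0.05 in either step (1557 and 2569 of all 18628 genes), and DESeq2 called 0. With SCFA, 1 was at an unadjusted p under 0.05 from 3 to 7 dpl (1852 of all genes), namely *Hmox1*, which was lower at 7 dpl by a log2 difference of -2.18 ± 0.49 (adjusted p = 0.233). This was -0.69 without the 3 libraries (adjusted p = 0.782), and it was called without female SCFA 3 dpl replicate 1, 3 or 4 (adjusted p = 0.095, 0.0614 and 0.0801), each time with the lens library in the fit. From 7 to 14 dpl with SCFA, 0.0913% of all genes were called, and 3 of the 10 were at an unadjusted p under 0.05, as were 2696 of all 18628 genes. *Nqo1* had a log2 difference of -0.57 ± 0.17 (adjusted p = 0.143), *Gclm* -0.31 ± 0.10 (adjusted p = 0.179) and *Nfe2l2* -0.16 ± 0.06 (adjusted p = 0.22). DESeq2 called *Nqo1* and *Nfe2l2* of these. *Nqo1* was called without female SCFA 14 dpl replicate 1 (adjusted p = 0.0631), female SCFA 7 dpl replicate 2 (adjusted p = 0.0856) or male SCFA 7 dpl replicate 2 (adjusted p = 0.039), and so was *Gclm* (adjusted p = 0.0827, 0.0866 and 0.0634).

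Whether SCFA acted differently in males and females was tested as an interaction at each day, and edgeR called 0 of the 10 genes at 3, 7 and 14 dpl, with 3, 0 and 1 at an unadjusted p under 0.05 (2658, 1361 and 2269 of all 18628 genes) and 0 called by DESeq2. The 0 of DESeq2 is not taken as a test of *Hmox1*, for which it gave no adjusted p in females at 3 dpl. Over all genes, edgeR called 0% at 3 dpl, 0.0161% at 7 dpl and 0% at 14 dpl. At 3 dpl the response of *Hmox1* had a male minus female difference of -3.37 ± 1.06 on the log2 scale (adjusted p = 0.212), that of *Nqo1* -1.09 ± 0.35 (adjusted p = 0.214) and that of *Gclm* -0.48 ± 0.21 (adjusted p = 0.305). Without female SCFA 3 dpl replicate 4, *Hmox1* (adjusted p = 0.0795) and *Nqo1* (adjusted p = 0.0866) were called, and without the 3 libraries that stood apart they were not (adjusted p = 0.57 and 0.352). At 14 dpl the response of *Srxn1* was lower in males by -0.79 ± 0.19 (adjusted p = 0.303), and it was called without male SCFA replicate 2 (-0.91, adjusted p = 0.0654). With all libraries, the fall of *Srxn1* in males at 14 dpl is not shown to differ from the response in females.

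The response to SCFA was also compared between days over both sexes. edgeR called none of the 10 genes between 3 and 7 dpl (0% of all genes) or between 7 and 14 dpl (0.00537%), and DESeq2 called 0 in both. At an unadjusted p under 0.05 there were 0 and 2 of the 10, and 1363 and 2801 of all 18628 genes. From 7 to 14 dpl, the difference of the responses was -0.45 ± 0.17 for *Gclm* (adjusted p = 0.212) and -0.55 ± 0.27 for *Nqo1* (adjusted p = 0.33).

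Between the runs of columns 5 of the 10 genes were called, where 53.1% of all genes were, 27.4% higher and 25.8% lower in the second. Lower in the second run were *Nqo1* (log2 difference -0.82 ± 0.13, adjusted p = 5.72e-06), *Gclm* (-0.36 ± 0.08, adjusted p = 0.000452) and *Hmox1* (-0.93 ± 0.42, adjusted p = 0.0707). *Txnrd1* (0.27 ± 0.06, adjusted p = 0.000191) and *Slc7a11* were higher. The median of *Hmox1* was 5.583 CPM in the first and 5.505 CPM in the second run, and that of *Gclm* 43.05 and 40.28 CPM. Both genes were highest in the library with lens transcripts, of the first run, at 270.8 and 87.7 CPM. The difference between the runs was not fitted without the libraries that stood apart. *Nqo1* was between 3.23 and 15.04 CPM in the 30 libraries of the first run and between 2.36 and 5.68 CPM in the 12 of the second. What the runs stand for is not given in the sources used here.

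Within a run, treatment can be compared in 8 sets of sex, day and run. In these the mean log2 CPM of *Srxn1* was lower with SCFA in 7 of 8 sets, the exception being females at 14 dpl in the first run, with 1 control. *Slc7a11* was lower in 8 of 8 sets. Males at 3 dpl in the first run and females at 14 dpl in the second had 1 SCFA library each. In the latter set *Srxn1* differed by only -0.021. These counts of sets were not made for all genes and are given with no test. In males at 7 dpl, the first-run libraries had a mean *Gclm* of 59.7 CPM with SCFA and 37.4 CPM in controls, and in females at 3 dpl of 67.8 and 43.02 CPM. Each of these SCFA means includes libraries that stood apart.

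Across the 42 libraries, with the mean of each run removed from log2 CPM, the levels of *Gclm* and *Nqo1* went along with the Müller glia markers (Pearson's r 0.79 and 0.75). In the 39 libraries without those that stood apart, r was 0.68 and 0.62. For *Nqo1*, r with the 9 markers of pigment epithelium and pigment cells was 0.64 and 0.65. These values describe libraries that share groups, treatment and pooled retinas, and are given with no test. In the pairs where the 2 genes were called, the Müller glia sums moved with them. In males at 7 dpl they were 3150.3, 3738.9 and 4021.9 CPM in controls and 7278.9, 4744.0, 8459.4, 4318.3 and 5184.4 CPM with SCFA. These sums did not overlap, and neither did 17.5% of all genes in this pair. In females at 3 dpl the sums were 4643.4, 4585.9 and 3862.6 CPM in controls. With SCFA they were 7627.9, 7060.5, 6569.2, 4178.3 and 5582.8 CPM, where replicate 4 lay within the controls. The part of Müller glia in these results was not tested.

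*Srxn1* and *Keap1* went along with the microglia markers, at r of 0.63 and 0.60, and at 0.64 and 0.60 without the 3 libraries. With the retinal ganglion cell markers r was 0.56 and 0.45, and 0.60 and 0.49 without the 3 libraries. For *Hmox1*, r with the lens markers was 0.57 with all 42 libraries and -0.046 with 39. With the markers of infiltrating myeloid cells it was 0.58 and 0.80. Both sets hold male control 3 dpl replicate 1, the highest of the 39 libraries in *Hmox1* and in this sum, and r was not computed without that library. *Hmox1* also had an r of 0.28 and 0.67 with the astrocyte markers and of 0.46 and 0.55 with the microglia markers. For the markers of pigment epithelium and pigment cells r was 0.54 and 0.27.

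**Figure D4:**
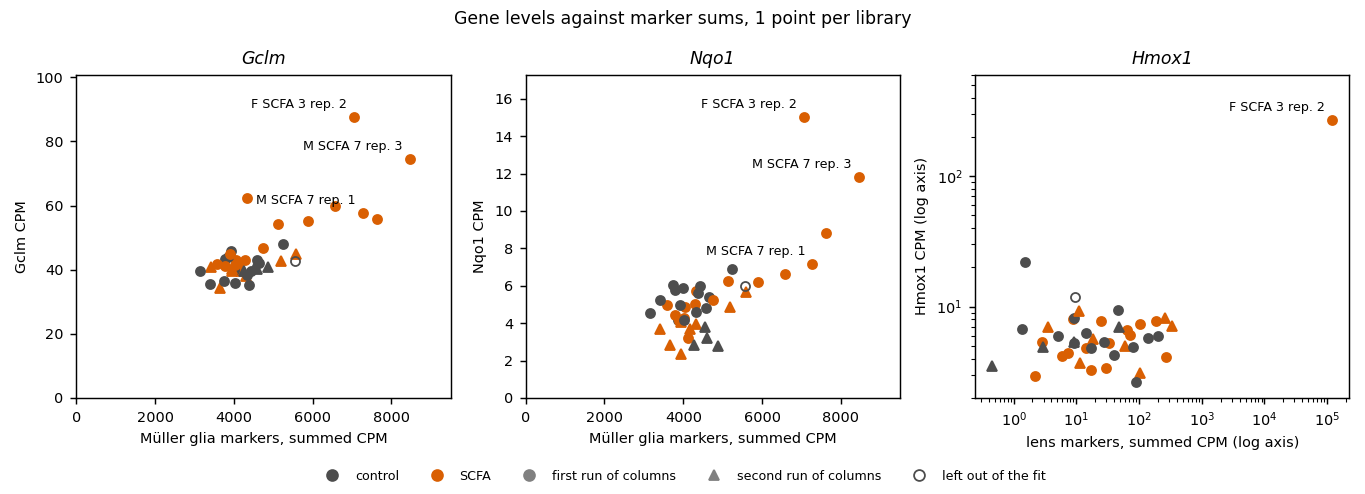
Gclm and Nqo1 against the summed Müller glia markers, in CPM on linear axes, and Hmox1 against the summed lens markers, in CPM on log axes, with 1 point per library. Colours tell control from SCFA, triangles mark the second run of columns, and the open circle is the library left out of the fit. The SCFA libraries of males at 7 dpl and females at 3 dpl with high Müller glia sums are also high in Gclm and Nqo1, and the library at 270.8 CPM of Hmox1 holds lens markers at 121090 CPM.

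Among the 45 pairs of the 10 genes, r ranged from -0.49 to 0.75 with a median of 0.13, and 6 pairs were over 0.5. Without the 3 libraries that stood apart, r ranged from -0.67 to 0.59 with a median of 0.006, and 5 pairs were over 0.5. The same values over all pairs of genes are not given here. With 42 libraries the highest was *Nqo1* with *Gclm*, at 0.75 and at 0.47 without the 3 libraries. Then came *Gclc* with *Gclm*, the subunits of the ligase, at 0.72 and 0.50. *Hmox1* with *Nqo1* went from 0.51 to 0.14. *Keap1* with *Srxn1* (0.60 and 0.59) and *Nfe2l2* with *Gsr* (0.57 and 0.57) moved little when the libraries were left out. The lowest was *Keap1* with *Gclc*, at -0.49 and -0.67. The genes most like each gene were *Vmp1* for *Nfe2l2* (0.70), *Zfp651* for *Keap1* (0.82), *Adam10* for *Gclc* (0.86), *Serp1* for *Gclm* (0.94), *Pdia4* for *Gsr* (0.70) and *Dio3* for *Slc7a11* (0.84). They were *Cmtm4* for *Txnrd1* (0.73), *Sept5* for *Srxn1* (0.89), *Pla2g16* for *Nqo1* (0.86) and *Tubb6* for *Hmox1* (0.90). Without the 3 libraries, the nearest gene to *Hmox1* was *Lyz2*, at 0.81, and the nearest to *Nqo1* was *S100a1*, at 0.75, while *Serp1*, *Pdia4* and *Sept5* remained first for their genes.

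The other 43 genes of the programme, from partners and repressors of NRF2 to enzymes of glutathione, heme, NADPH and carbonyl chemistry, all passed the filter. With SCFA, 4 rose and 4 fell in males at 7 dpl, with a median log2 fold change of 0.026 (all genes -0.031). Of all genes, 13.4% were higher and 10.7% lower. *Ugdh*, which makes UDP-glucuronic acid, rose by 0.60 ± 0.11 (adjusted p = 0.000458), and *Bach1*, a repressor at antioxidant response elements, by 0.49 ± 0.17 (adjusted p = 0.0385). *Mafg*, a small MAF partner of NRF2, fell by 0.56 ± 0.16 (adjusted p = 0.0113). Only 1 rose and 1 fell without the 3 libraries, where 6.49% of all genes were called.

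In males at 14 dpl, where *Srxn1* fell, 1 of the 43 rose and 6 fell, with a median of -0.13 (all genes 0.014), where 5.53% of all genes were higher and 5.88% lower. *Sqstm1*, the autophagy receptor that binds KEAP1, was at 176 ± 45.4 CPM with SCFA and 331 ± 16.8 CPM in controls (SD, n = 3 each), a log2 fold change of -0.91 ± 0.21 (adjusted p = 0.0147). The small MAF genes *Mafk* (-0.95 ± 0.22, adjusted p = 0.0147) and *Maff* (-1.28 ± 0.40, adjusted p = 0.0512) and the glutathione peroxidase *Gpx1* (-0.86 ± 0.22, adjusted p = 0.0203) fell as well, and *Ugdh* rose (0.41 ± 0.12, adjusted p = 0.0409). Without the 3 libraries, 3 rose and 8 fell, and 16.5% of all genes were called.

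In females at 3 dpl, 6 of the 43 rose and 1 fell, with a median of 0.15 (all genes -0.009), where 5.09% of all genes were higher and 5.09% lower. Without the library with lens transcripts 1 rose and 1 fell, where 1.11% of all genes were called. *Mafg* fell (-0.85 ± 0.16, adjusted p = 0.00627). Among those that rose were the catalase gene *Cat* (0.92 ± 0.19, adjusted p = 0.0122) and *Gss*, the glutathione synthetase (1.25 ± 0.40, adjusted p = 0.06), whose SCFA libraries had a mean of 56.1 ± 75.3 CPM (SD, n = 5). In the mean of the 6 pairs, 10 rose and 6 fell, with a median of 0.044 (all genes 0), where 16.1% of all genes were higher and 15.7% lower. The small MAF genes *Maff* (-0.88 ± 0.16, adjusted p = 0.000134), *Mafk* (-0.40 ± 0.09, adjusted p = 0.000811) and *Mafg* (-0.28 ± 0.07, adjusted p = 0.00246) were all lower. *Maff* was low in level, with means of 2.75 CPM with SCFA and 6.72 CPM in controls in males at 14 dpl. Higher in the mean of the 6 pairs were *Ugdh* (0.25 ± 0.05, adjusted p = 0.000224), *Slc40a1* (0.36 ± 0.09, adjusted p = 0.00514) and *Blvra* (0.18 ± 0.05, adjusted p = 0.0082). None of the 43 was called for SCFA in males at 3 dpl or in females at 7 and 14 dpl by edgeR.

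Between the sexes, 3 of the 43 were higher and 2 lower in male controls at 14 dpl, with a median of 0.079 (all genes 0), where 3.37% of all genes were higher and 4.27% lower. *Ugdh* (-0.51 ± 0.13, adjusted p = 0.0289) and *Bach1* (-0.70 ± 0.19, adjusted p = 0.0429) were lower in males. Like *Srxn1*, *Sqstm1* was higher in males (0.68 ± 0.22, adjusted p = 0.0784), and so was *Gpx1* (0.66 ± 0.23, adjusted p = 0.0939). With SCFA at 3 dpl, 2 were higher and 10 lower in males, with a median of -0.20 (all genes 0.009), where 10.3% of all genes were higher and 7.41% lower. Without the library with lens transcripts, 1 and 4 of the 43 were called, and 7.36% of all genes. Between the runs, 5 of the 43 were higher and 22 lower in the second, where 27.4% of all genes were higher and 25.8% lower.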

How the data were processed

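The authors deposited a table of read counts per gene for 43 retinal libraries. The submitters' processing notes name mm10 and DESeq2. The aligner, the counter, the annotation and the strand setting are not given in the sources used here. Groups came from the sample titles, since the treatment label reads control throughout. Gene names and positions came from GENCODE M21 (GRCm38), where 54409 of the 54532 identifiers were found. Counts were fitted as deposited in edgeR 4.0.16 (R 4.3.3) by the quasi-likelihood test, with terms for the group and for the run of columns, filterByExpr, TMM scaling and Benjamini-Hochberg adjustment over 18628 genes. The run of columns was taken from the column order of the table and is no label of the submitters. The library labelled female control 7 dpl replicate 2 was left out, as the study did, except in an alternative with all 43 libraries. CPM used TMM-scaled library sizes. DESeq2 1.42.0 was an alternative, as were other scalings, filters, runs, thresholds, libraries left out and a replicate block. The fits were tested on simulated counts with changes in male SCFA mice at 7 dpl. There edgeR recovered 52% of 1.5-fold and 80% of 2-fold changes, with 16 false calls among 148. DESeq2 recovered 62% and 85%, with 37 false calls among 184. The simulation changed 100 genes for each size of change, among 18628, and none at very low levels. Apart from these changes each gene had a single mean level, with no effect of group or run and no libraries that stood apart. The rates describe that setting and were not measured for the real libraries. Totals ran from 14826957 to 21507527 counts, and the lowest count among the 10 genes was 41 (*Slc7a11*), so that counting error is a part of the spread between libraries, above all for *Nqo1*, *Hmox1* and *Slc7a11*.

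Members and lists were chosen with earlier results of these data known. All 10 genes are named, and of the other 43 only genes among the 6 of lowest adjusted p among those called in a comparison. The count table held no column of values other than the 43 used. Marker sums are sums of CPM over lists of textbook markers. Replicate numbers were not taken as pairs. Over 17 pairs of same-numbered libraries, residual correlations ran from -0.18 to 0.16, with a median of -0.005, and 5 were over 0.1. Among these were replicates 1, 2 and 3 of females at 3 dpl (0.157, 0.117 and 0.133). Tables and figures were made with Python 3.11.15, pandas 2.3.3, numpy 2.4.6 and matplotlib 3.10.9.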

Additional observations from a re-analysis of the deposited data

Results flagged for a closer look

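Within groups of 4 or 5 libraries, 4 of 50 sets of a gene and a group held a library far from the others of its group by Dixon's test, which chance does in about 1 of 20 sets. *Keap1* was low, at 37.3 CPM, in female SCFA 7 dpl replicate 3. *Hmox1* was high in female SCFA 3 dpl replicate 2 (270.8 CPM) and in male control 3 dpl replicate 1 (21.95 CPM). *Gclc* was also high in female SCFA 3 dpl replicate 2, at 64.7 CPM. Replicate 2 of the female controls at 7 dpl, which was left out of the fit of 42 libraries, lay above both other libraries of its group in *Keap1* (63.2 CPM), *Hmox1* (11.8 CPM), *Nqo1* (5.97 CPM), *Txnrd1* (40.5 CPM) and *Srxn1* (100.9 CPM). That library lay below both others in *Gclc* (28.2 CPM) and *Nfe2l2* (26.0 CPM), and between them in *Gclm*, *Slc7a11* and *Gsr*. The share of all genes in which it was highest or lowest is not given here.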

How the results depend on the processing

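Counts of called genes are out of the 10. With an absolute log2 fold change over 1 asked as well, SCFA over control called 0 in males at 7 dpl, 0 in males at 14 dpl, 1 in females at 3 dpl and 0 in the mean of the 6 pairs, and males over females 0 in controls at 14 dpl and 1 with SCFA at 3 dpl. At an adjusted p under 0.05, the mean of the 6 pairs called 3. Without run of columns in the fit, 0 were called in males at 7 dpl and 1 in females at 3 dpl. With the study's libraries pair by pair, SCFA called 1 in males at 7 dpl, 2 in males at 14 dpl and 1 in females at 14 dpl (19.1%, 24.6% and 17.7% of all genes), and males over females 1 in controls at 7 dpl and 0 at 14 dpl (6.59% and 0.0376%). These fits held no term for run of columns. There *Nqo1* in males at 7 dpl turned to -0.055, in a pair without the rod-poor libraries. In that pair SCFA replicates 4 and 5 belong to the second run and all controls to the first. In females at 14 dpl the controls were of the second run and the SCFA libraries of the first. With at least 10 counts in every library, males at 7 dpl had 5. Without the rod-poor libraries, which was chosen after seeing the data, males at 7 dpl had 1 and the mean of the 6 pairs 3. Without the 3 libraries that stood apart, chosen likewise, males at 7 dpl had 1, females at 3 dpl 0, the mean 3 and the sexes with SCFA at 3 dpl 1. In the second run alone the sexes with SCFA at 3 dpl had 0, and with DESeq2 4. DESeq2 called 2 between 7 and 14 dpl with SCFA.

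With no filter on low counts, males over females had 1 in controls at 3 dpl (*Hmox1*), 2 in controls at 14 dpl (*Hmox1* and *Srxn1*) and 1 with SCFA at 14 dpl (*Hmox1*). Under the same setting, 7 over 3 dpl had *Hmox1* in controls and with SCFA, and 14 over 7 dpl with SCFA had *Gclm* and *Nqo1*. The interaction of sex and SCFA had *Hmox1* and *Nqo1* at 3 dpl and *Srxn1* at 14 dpl, and the SCFA response at 7 minus 3 dpl *Hmox1*. Those of *Hmox1* that use SCFA mice at 3 dpl include the library with lens transcripts. The share of all genes called under this setting is not given here. Except where libraries or thresholds changed, the cause was not tested.

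Leaving out a library in turn gave 1 to 5 called for SCFA in males at 7 dpl, 0 to 1 in males at 14 dpl, 0 to 3 in females at 3 dpl and 3 to 6 in the mean. It gave 0 to 1 for the sexes in controls at 14 dpl and 0 to 4 with SCFA at 3 dpl. For 7 over 3 dpl with SCFA it gave 0 to 1, for 14 over 7 dpl 0 to 2, and for the interaction 0 to 2 at 3 dpl and 0 to 1 at 14 dpl. Groups left with 1 library took their spread from the others.

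The replicate numbers were not taken as pairs. A replicate block gave 4 called between the sexes with SCFA at 3 dpl and 1 for the interaction at 3 dpl, and elsewhere stayed within 1.5 times the count without it. CPM on unscaled totals kept 109 of 120 group means within 1 SD.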
